A study of Saccharomyces cerevisiae with 56 samples.

Results

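The entry of a yeast culture into the oxidative (OX) phase of the yeast metabolic cycle (YMC) was measured as the difference between time point 10 of the cycle, when dissolved oxygen (dO2) in the chemostat had dropped to 52.98%, and time point 8, when it was still 68.98%. Both samples lie 0.25 h apart, and time point 9, at 58.61% dO2, lies between them. The deposited files list 7133 features, of which 5083 protein-coding genes are described here. These are all genes that had the minimum of mRNA counts of the study's methods and at least 1 footprint count on their coding sequence (CDS) in each of the 3 samples and that the files do not mark as dubious ORFs. None of the 5083 genes was included for how it changed, but genes named below were in part chosen by the size of their change.

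The study sampled 16 time points of a single cycle in CEN.PK, a prototrophic MATa strain of Saccharomyces cerevisiae grown as a continuous chemostat culture in minimal medium with yeast extract and glucose. At time points 10, 9 and 8 alike, as at all others, the culture was shaken with cycloheximide (CHX), an inhibitor of translation elongation, before the cells were collected. The cycle has no sample without CHX, and its part in these values was not tested. From the lysate of each sample 1 ribosome profiling library, which counts mRNA fragments protected by ribosomes (footprints), and 1 RNA-seq library were made.

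Cultures of this kind alternate between long stretches of low respiration and short bursts of oxygen consumption. In the reductive charging (RC) phase cells are known to build up storage carbohydrate and stress protection, in the OX phase they respire and express the genes of ribosome and amino acid synthesis, and in the reductive building (RB) phase mitochondrial and cell division genes follow. Ribosome biogenesis (ribi) genes encode the factors that transcribe, cut, modify and assemble rRNA, and they respond to nutrients through TORC1 and protein kinase A. In amino acid-starved BY4741 cells, the paper reports that CHX raised ribi mRNAs and lowered ribi footprints. It names transitions of the YMC among the conditions where CHX led to an apparent drop in footprints per ribi mRNA. For NOP2 mRNA, it reports a weaker response to CHX in CEN.PK than in BY4741. How far CHX changed the ribi values below was not tested.

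The deposited table labels time point 8 as the change between RC and OX and time points 9 and 10 as OX. Footprints counted on genes numbered 10133399, 14262853 and 27429226 at time points 8, 9 and 10, the fewest of the 16 samples at time point 8 and the most at time point 10, while RNA-seq gave 19143691, 20243247 and 21278703 counts. A footprint change between these samples therefore rests on unequal depth. The deposited RPKM (reads per kilobase of CDS, scaled for library size) corrects for read totals other than these counts. A footprint count at time point 10 was worth 0.423 times the RPKM of one at time point 8, and an mRNA count 0.928 times. Neither factor is the one that the totals above would give. Translation efficiency (TE) is footprint RPKM over mRNA RPKM. All changes below are log2 ratios of time point 10 over time point 8 with the median of the 5083 genes set to 0. Before this step the median gene stood at -0.023 for mRNA, 0.28 for footprints and 0.32 for TE, so a change in TE is relative to a general shift of that size. The size of that shift depends in part on the read totals used for the RPKM. No time point has a replicate, so no change has a test. The interval given with a gene covers counting error, that given with a list median covers the spread between its genes, and neither covers the spread between cultures. A gene is said to have risen or fallen when it moved by more than 2-fold.

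**Figure D1:**
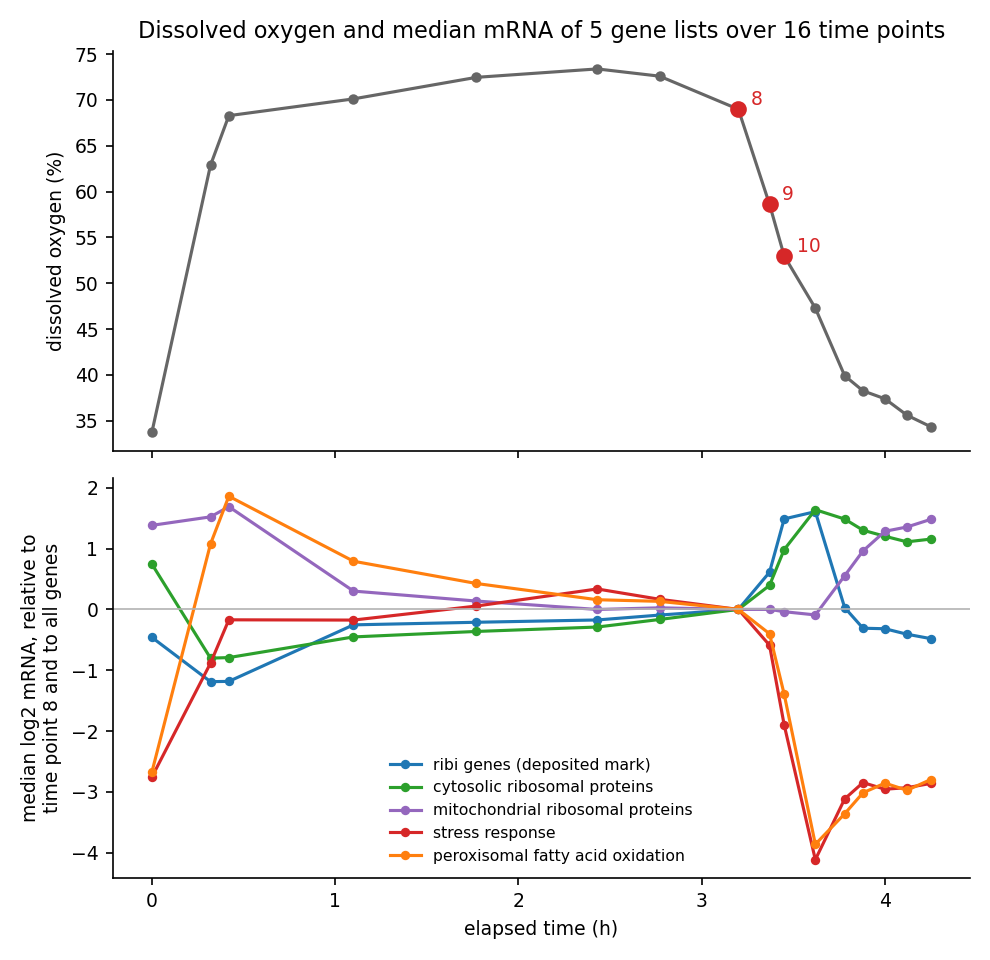
Dissolved oxygen (top, in %) and the median mRNA change of 5 gene lists (bottom, log2, relative to time point 8 and to the median gene) against elapsed time at 16 time points, 1 sample each. Time points 8, 9 and 10 are in red: ribi mRNAs stood 1.49 above and stress response mRNAs 1.90 below their level of time point 8 at time point 10, while mitochondrial ribosomal proteins stayed near 0.

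In 0.25 h, 653 mRNAs rose and 577 fell, which is 12.8% and 11.4% of the 5083 genes. Footprints of 785 genes rose and of 635 fell (15.4% and 12.5%), whereas TE rose for 165 and fell for 85 (3.25% and 1.67%). Without subtraction of the median, TE rose for 372 and fell for 28, and footprints fell for 402. A 4-fold change of mRNA was passed by 31 genes upward and 137 downward, and an 8-fold change by 4 upward and 30 downward. Few mRNAs had passed 2-fold after the first 0.17 h, although smaller changes were already present, as in the ribi genes, whose median stood at 0.61 at time point 9. At that time point 29 mRNAs were over 2-fold above time point 8 (0.571%) and 22 were over 2-fold below it (0.433%). In the next 0.08 h, from time point 9 to 10, 62 mRNAs rose (1.22%) and 308 fell (6.06%). Over the 0.43 h before, from time point 7 to 8, only 1 of 5092 mRNAs rose (0.0196%) and 6 fell (0.118%).

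The marker genes of the 3 phases moved apart. POX1, the acyl-CoA oxidase of peroxisomal fatty acid oxidation and a marker of RC, had 278, 184 and 37.5 RPKM of mRNA at time points 8, 9 and 10, and fell with a log2 change of -2.87 (95% counting interval -2.92 to -2.81). RPL17B, a ribosomal protein gene that marks OX, had 369, 485 and 727 RPKM at the same time points, a log2 change of 1.00 (95% counting interval 0.92 to 1.09) that lies at the 2-fold limit. MRPL10, a mitochondrial ribosomal protein gene that marks RB, had 42.8, 41.9 and 35.3 RPKM, with a log2 change of -0.26 (95% counting interval -0.37 to -0.14). Over the whole cycle, POX1 mRNA ranged from 4.31 RPKM at time point 11 to 1021 RPKM at time point 3 (median 111), so its drop was not complete at time point 10. The actin gene ACT1 moved little, with 1045, 986 and 853 RPKM and a log2 change of -0.27 (95% counting interval -0.29 to -0.25).

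Ribosome biogenesis genes rose together. Of the 165 genes measured that the authors mark as ribi, 140 rose and 0 fell in mRNA, against 12.8% and 11.4% of all genes, with a median log2 change of 1.49 (1.44 to 1.55). Their footprints rose for 137 and fell for 1, with a median of 1.60 (1.49 to 1.72). The share of all mRNA counts that fell on the marked genes was 2.39%, 3.68% and 6.22% at time points 8, 9 and 10, and the share of footprints was 1.43%, 2.38% and 4.71%. Factors of the small-subunit processome, the particle in which the 18S rRNA precursor is folded and cut, rose for 61 of 64 genes, with a median of 1.52 (1.48 to 1.61). Factors that assemble the large subunit rose for 68 of 72, with a median of 1.55 (1.50 to 1.61). No gene of either list fell in mRNA. The members of both lists lay close together, from 0.44 to 1.91 in the first and from 0.34 to 2.02 in the second.

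NSR1 (YGR159C, chromosome VII, 806412 to 807656), a nucleolar protein required for pre-rRNA processing, had the highest mRNA level of the small-subunit list. Its mRNA stood at 319, 540.1 and 1050.2 RPKM at time points 8, 9 and 10, a log2 change of 1.74 (95% counting interval 1.71 to 1.77). Its footprints stood at 113, 389.7 and 1199.9 RPKM, a log2 change of 3.13 (95% counting interval 3.07 to 3.19), from 2312, 10403 and 58176 counts. NSR1 thus rose 8.74-fold in footprints and 3.34-fold in mRNA. PNO1, an assembly factor of the small subunit, had 117, 196 and 329 RPKM of mRNA with a change of 1.52, while the helicase gene DHR2 and the processome gene UTP10 had the largest changes of the list, 1.91 and 1.82. Among large-subunit factors, NOG2, a GTPase of pre-60S particles, had 137, 246 and 443 RPKM of mRNA and 48.7, 127 and 331 RPKM of footprints. ALB1 and MAK16, both pre-60S factors, changed most in mRNA, by 2.02 and 1.95. NOP2, the methyltransferase of 25S rRNA, rose in mRNA with 78.0, 116 and 194 RPKM and a change of 1.33 (95% counting interval 1.29 to 1.38). JIP5 had 52.9, 63.4 and 95.9 RPKM of mRNA and a change of 0.88, short of 2-fold, but its footprints rose by 1.40. RIO1, the kinase of late 40S maturation, had an mRNA change of 0.66 and a footprint change of 1.83 (95% counting interval 1.65 to 2.02).

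Genes that make and modify the RNA parts of the translation machinery rose as well. Of 13 proteins of the small nucleolar RNPs, which guide methylation and pseudouridylation of rRNA, 10 rose, among them the methyltransferase NOP1 with 218, 407 and 735 RPKM and a change of 1.78. RNA polymerase I genes, which transcribe rRNA, rose for 9 of 14, led by the subunits RPA135 (1.81) and RPA190 (1.68). RNA polymerase III genes rose for 9 of 12. Of all genes, 12.8% rose. Enzymes of tRNA modification rose for 21 of 27, with a median of 1.21 (1.07 to 1.53), and the dihydrouridine synthase DUS3 and the methyltransferase TRM5 changed by 1.84 and 1.77.

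Of 14 regulators of ribi genes 2 rose and 1 fell, shares of 14.3% and 7.14% that are near those of all genes, 12.8% and 11.4%. TOD6, a repressor of ribi transcription, rose with 35.9, 67.2 and 128.3 RPKM of mRNA at time points 8, 9 and 10 and a change of 1.86 (95% counting interval 1.79 to 1.93). Its relative DOT6 had 104, 113 and 107 RPKM, a change of 0.060 (95% counting interval 0.014 to 0.11), and STB3, another repressor, had 55.8, 49.2 and 34.2 RPKM and a change of -0.68 (95% counting interval -0.77 to -0.60). CRF1, a corepressor of ribosomal protein genes, fell with 46.1, 21.0 and 6.06 RPKM and a change of -2.91 (95% counting interval -3.08 to -2.73).

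**Figure D2:**
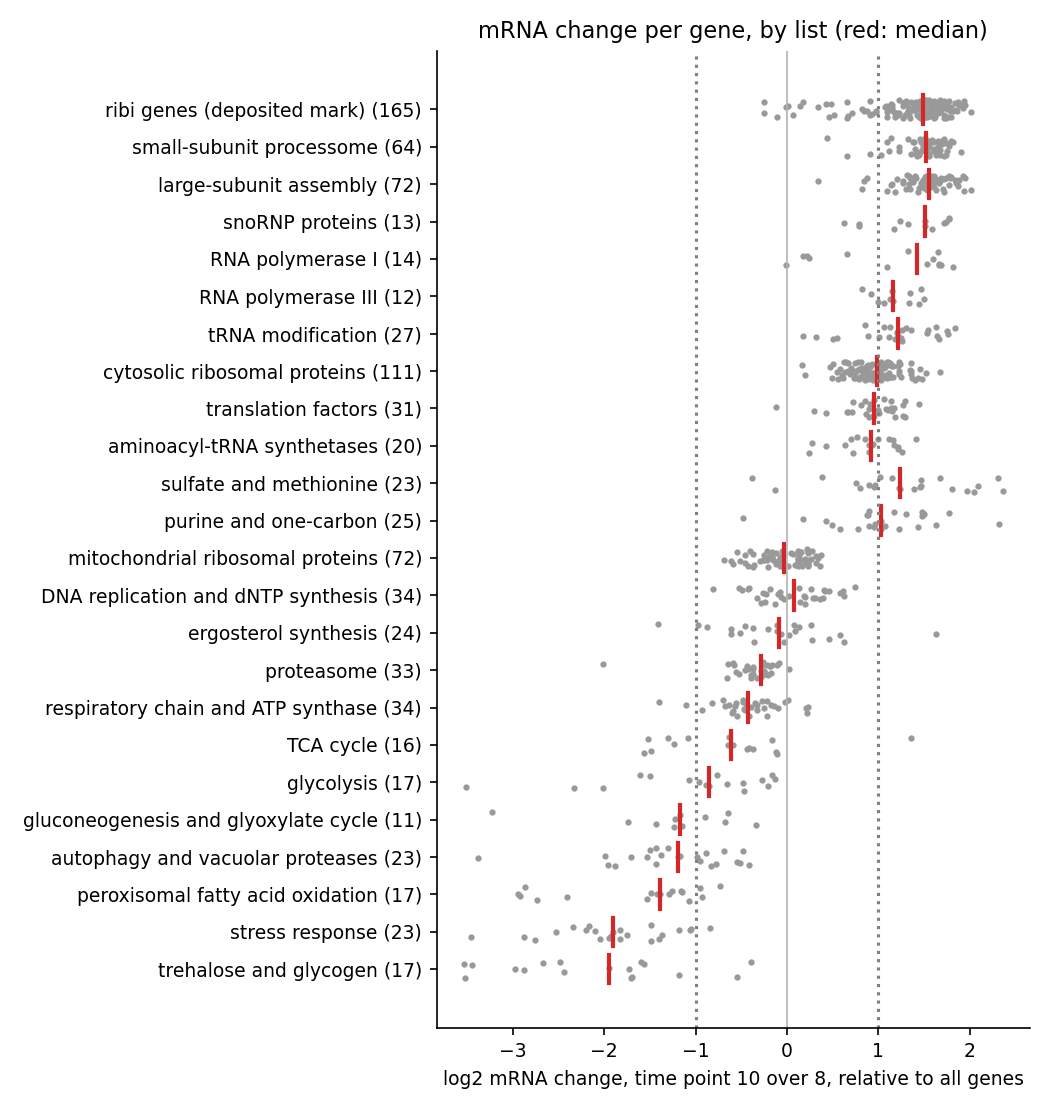
The mRNA change of each gene (points, log2, time point 10 over 8, relative to the median gene) in 24 lists, with the list median in red, the number of genes in parentheses and 2-fold changes as dotted lines. Ribosome assembly lists have medians above 1, up to 1.55, and trehalose and glycogen genes lie lowest, with a median of -1.95.

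Genes of cytosolic ribosomal proteins (RPs) moved less than the factors that assemble them. Many RP genes occur as near-identical pairs whose shared positions were masked, which left 111 of 137 for measurement. Of these 54 rose in mRNA and none fell, with a median of 0.98 (0.89 to 1.02), so that about as many lay above as below the 2-fold limit. In footprints 36 rose, with a median of 0.87 (0.76 to 0.96). On the positions left after masking, RP genes took 2.09%, 2.77% and 3.77% of mRNA counts and 2.93%, 3.82% and 5.51% of footprints at time points 8, 9 and 10. Masked positions add no counts, so these are not the shares of all RP mRNA or footprints. RPS31, which encodes a fusion of ubiquitin and an RP of the small subunit, had 1332, 1944 and 2942 RPKM of mRNA and a change of 1.17, and RPL10 had 1415, 1715 and 2029.7 RPKM and a change of 0.54. The largest RP changes were 1.68 for RPS8B and 1.52 for RPL9A, both members of paralog pairs and so measured on unique positions only. Translation factors rose for 14 of 31, with a median of 0.96 (0.87 to 1.14), and the elongation factor YEF3 had 803, 1368 and 2160.2 RPKM and a change of 1.45. Cytosolic aminoacyl-tRNA synthetases, which charge tRNAs, rose for 7 of 20, with a median of 0.92 (0.73 to 1.16), and the lysine enzyme KRS1 changed by 1.41. No gene of these 3 groups fell in mRNA, whereas of all genes 12.8% rose and 11.4% fell.

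Genes of sulfur, amino acid and nucleotide synthesis rose in part. In the list of sulfate assimilation and methionine synthesis 15 of 23 rose and none fell, with a median of 1.23 (0.96 to 1.68). SAM1, an S-adenosylmethionine synthetase with the close relative SAM2, had 197, 437 and 998 RPKM of mRNA at time points 8, 9 and 10, a change of 2.36 (95% counting interval 2.32 to 2.40). MUP1, the high-affinity methionine permease, had 127, 298 and 619 RPKM and a change of 2.31 (95% counting interval 2.27 to 2.34). MET6, the methionine synthase, had 604, 896 and 1645 RPKM and a change of 1.47, and MET17, which forms homocysteine, had 544, 699 and 932 RPKM and a change of 0.80. Of 25 genes of purine and one-carbon synthesis 13 rose, with a median of 1.03 (0.89 to 1.30), among them the GMP synthetase GUA1 (1.78) and the hydroxymethyltransferase SHM2 (1.48). Of 11 genes of pyrimidine synthesis 7 rose, and the CTP synthase URA7 and the uracil permease FUR4 changed by 1.99 and 2.07. Other amino acid pathways moved less. Branched-chain genes rose for 4 of 11 (36.4%) and arginine and lysine genes for 4 of 17 (23.5%), against 12.8% of all genes. Histidine and aromatic genes rose for 5 and fell for 1 of 21 (23.8% and 4.76%, against 12.8% and 11.4%). The gene that fell was ARO9, an aromatic aminotransferase of amino acid breakdown, with 94.3, 70.5 and 27.2 RPKM and a change of -1.77. LYS1 and LYS9, of lysine synthesis, had changes of 1.92 and 1.51.

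Permeases split by gene. Of 18 amino acid permeases 9 rose and 3 fell (50% and 16.7%, against 12.8% and 11.4% of all genes). AGP1, a permease of broad specificity, had 199.5, 407 and 639 RPKM of mRNA at time points 8, 9 and 10, a change of 1.70 (95% counting interval 1.67 to 1.73). PUT4, the proline permease, had 318, 222 and 57.4 RPKM, a change of -2.44 (95% counting interval -2.49 to -2.39). Among 9 hexose transporters and their regulators 2 rose and 4 fell (22.2% and 44.4%). HXT4, a high-affinity transporter, had 25.5, 86.7 and 121 RPKM and a change of 2.27 (95% counting interval 2.16 to 2.38), while HXT5, a transporter of slow growth, had 679, 425 and 166 RPKM and a change of -2.01 (95% counting interval -2.05 to -1.98). The HXT genes are close relatives, so their counts rest on the positions left unique in the reference genome.

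The falling side was led by storage carbohydrate and stress protection genes. Of 17 genes of trehalose and glycogen metabolism 15 fell and none rose, with a median of -1.95 (-2.88 to -1.60). PGM2, the main phosphoglucomutase, had 208, 108 and 17.6 RPKM of mRNA at time points 8, 9 and 10, a change of -3.54 (95% counting interval -3.63 to -3.45). TSL1, a subunit of trehalose synthase, had 136, 62.2 and 11.7 RPKM and a change of -3.52 (95% counting interval -3.60 to -3.45), and TPS1, its catalytic subunit, 222, 145 and 39.1 RPKM and a change of -2.48. NTH1, the neutral trehalase that breaks trehalose down, had 173, 141 and 129 RPKM and a change of -0.39, short of 2-fold. In the stress response list 22 of 23 genes fell, with a median of -1.90 (-2.17 to -1.48), against 11.4% of all genes. HSP26, a small heat shock protein, stood at 12111, 8138 and 2353 RPKM of mRNA and 28678, 18508 and 5764 RPKM of footprints, with an mRNA change of -2.34. HSP12, a membrane-protective protein, had 8144, 5616 and 2263 RPKM and a change of -1.82, and HSP30 changed by -3.46 (95% counting interval -3.60 to -3.32). The stress list took 3.87%, 2.63% and 0.993% of all mRNA counts and 7.26%, 4.71% and 1.86% of all footprints at time points 8, 9 and 10.

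Genes for the use of fat and non-fermentable carbon fell with them. Of all genes, 11.4% fell and 12.8% rose. Peroxisomal fatty acid oxidation genes fell for 14 of 17 and rose for none, with a median of -1.39 (-2.41 to -1.15). PXA1, part of the peroxisomal fatty acid importer, and CTA1, the peroxisomal catalase, changed by -2.94 and -2.92. Genes of gluconeogenesis and the glyoxylate cycle fell for 7 of 11, with a median of -1.17 (-1.74 to -0.64), and JEN1, the lactate and pyruvate importer, had 1538, 833 and 161 RPKM and a change of -3.23 (95% counting interval -3.26 to -3.20). Autophagy and vacuolar protease genes fell for 13 of 23, with a median of -1.19 (-1.50 to -0.83). ATG7, the activating enzyme of autophagy, had 38.4, 23.9 and 3.64 RPKM and a change of -3.38 (95% counting interval -3.57 to -3.19), and the vacuolar protease PRB1 had 1016, 881 and 506 RPKM and a change of -0.98.

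Genes of central carbon metabolism changed in part. Glycolysis genes fell for 6 of 17 and rose for none, with a median of -0.85 (-1.50 to -0.47). HXK1 and GLK1, which phosphorylate glucose, had 399.6, 217 and 34.4 RPKM and 371, 227 and 72.3 RPKM of mRNA at time points 8, 9 and 10, with changes of -3.52 and -2.33. TDH3, the main glyceraldehyde-3-phosphate dehydrogenase and one of the most abundant mRNAs, had 13620.0, 11880.0 and 7427 RPKM and a change of -0.85. Its footprints stood at 19664, 19632 and 19990.0 RPKM. These are levels before centring, on which scale the footprints of the median gene rose by 0.28 in log2. Of 19 genes of fermentation and acetyl-CoA supply 2 rose and 5 fell (10.5% and 26.3%, against 12.8% and 11.4% of all genes), with falls of -2.24 for the acetyl-CoA synthetase ACS1 and -1.95 for the ethanol-consuming dehydrogenase ADH2. The fermentative genes PDC1 and ADH1 changed by -0.16 and 0.13. TCA cycle genes rose for 1 and fell for 6 of 16 (6.25% and 37.5%). The aconitase gene ACO1 was among those that fell, with 369, 285 and 154 RPKM and a change of -1.24 (95% counting interval -1.27 to -1.21).

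Genes of the respiratory chain did not rise with those of ribosome assembly. Of 34 nuclear genes of the respiratory chain and ATP synthase 0 rose and 2 fell (0% and 5.88%, against 12.8% and 11.4% of all genes). Their median was -0.43 (-0.56 to -0.26). ATP2, a catalytic subunit of ATP synthase, had 559, 498 and 413 RPKM of mRNA at time points 8, 9 and 10, a change of -0.41. NDI1, the internal NADH dehydrogenase, and SDH2, of succinate dehydrogenase, fell by 1.40 and 1.11 on the log2 scale. The list does not hold COX26, of cytochrome c oxidase, which fell further and is described with the largest falls. Mitochondrial RPs, which are high in RB, had a median of -0.038 (-0.12 to 0.12), with 0 of 72 rising and 0 falling.

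Few mRNAs of other housekeeping groups passed 2-fold. No mRNA of 34 genes of DNA replication and dNTP synthesis passed 2-fold, and their median was 0.076 (-0.19 to 0.29). Ergosterol genes rose for 1 and fell for 1 of 24, the rise being ERG4 (1.64) and the fall the HMG-CoA reductase HMG1 (-1.42). Proteasome genes lay slightly below the median gene, 32 of 33 of them, with a median of -0.29 (-0.40 to -0.24), and the only one to fall past 2-fold was RPN4, the transcription factor of the proteasome genes, with 187, 113 and 45.8 RPKM and a change of -2.01 (95% counting interval -2.07 to -1.95). Of 26 cytosolic chaperones 2 rose and 5 fell (7.69% and 19.2%, against 12.8% and 11.4% of all genes). SSB1, a ribosome-bound Hsp70, had 415, 754 and 1295 RPKM and a change of 1.66, whereas SSA1 and HSP82, of the stress-inducible Hsp70 and Hsp90 systems, changed by -1.56 and -1.65. CLN3, the G1 cyclin, rose with 47.5, 68.9 and 99.6 RPKM and a change of 1.09 (95% counting interval 1.03 to 1.16), and was the only one of 12 cyclins and cell cycle regulators past 2-fold.

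Among the largest single falls of mRNA, over genes with at least 32 footprints in each sample and a level at time point 9 between the other 2, were those of RGI2, RTC3, TMA10, STF2, GIP2, COX26, YLR108C, PRR2 and YNL194C, from -5.33 to -3.57. RGI2 (YIL057C, chromosome IX, 247902 to 248396), a protein of energy metabolism under respiratory conditions, had 478, 174 and 11.7 RPKM of mRNA at time points 8, 9 and 10, a change of -5.33 (95% counting interval -5.54 to -5.11), which is 40.1-fold lower at time point 10. Its footprints stood at 846, 337 and 37.1 RPKM. TMA10 and STF2 are related small proteins, the second known for protection against drying, and changed by -4.11 and -3.96. GIP2 is a putative glycogen-targeting subunit of the Glc7 phosphatase (-3.90) and COX26 a subunit of cytochrome c oxidase (-3.74). At time point 9, whose place between the other 2 was set by the choice of genes, their mRNA lay below that of time point 8 by 0.62 (COX26) to 1.50 (RGI2) on the log2 scale.

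The largest rises by the same rule were TPO2, INA1, YMR244W, YKL068W-A, YBR238C, GIC2, UTR2, YBL081W, AAH1 and SAM1, from 4.02 to 2.36. TPO2 (YGR138C, chromosome VII, 763762 to 765606), a polyamine exporter with the close relative TPO3, had 16.4, 44.1 and 261 RPKM of mRNA at time points 8, 9 and 10, a change of 4.02 (95% counting interval 3.85 to 4.19). GIC2, an effector of the GTPase Cdc42 in bud emergence, and UTR2, a cell wall transglycosylase, had 8.84, 22.8 and 53.9 RPKM and 13.4, 33.3 and 75.7 RPKM. AAH1, the adenine deaminase, had 100.2, 224 and 557 RPKM of mRNA and 46.1, 218 and 889 RPKM of footprints, with changes of 2.50 and 3.99.

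**Figure D3:**
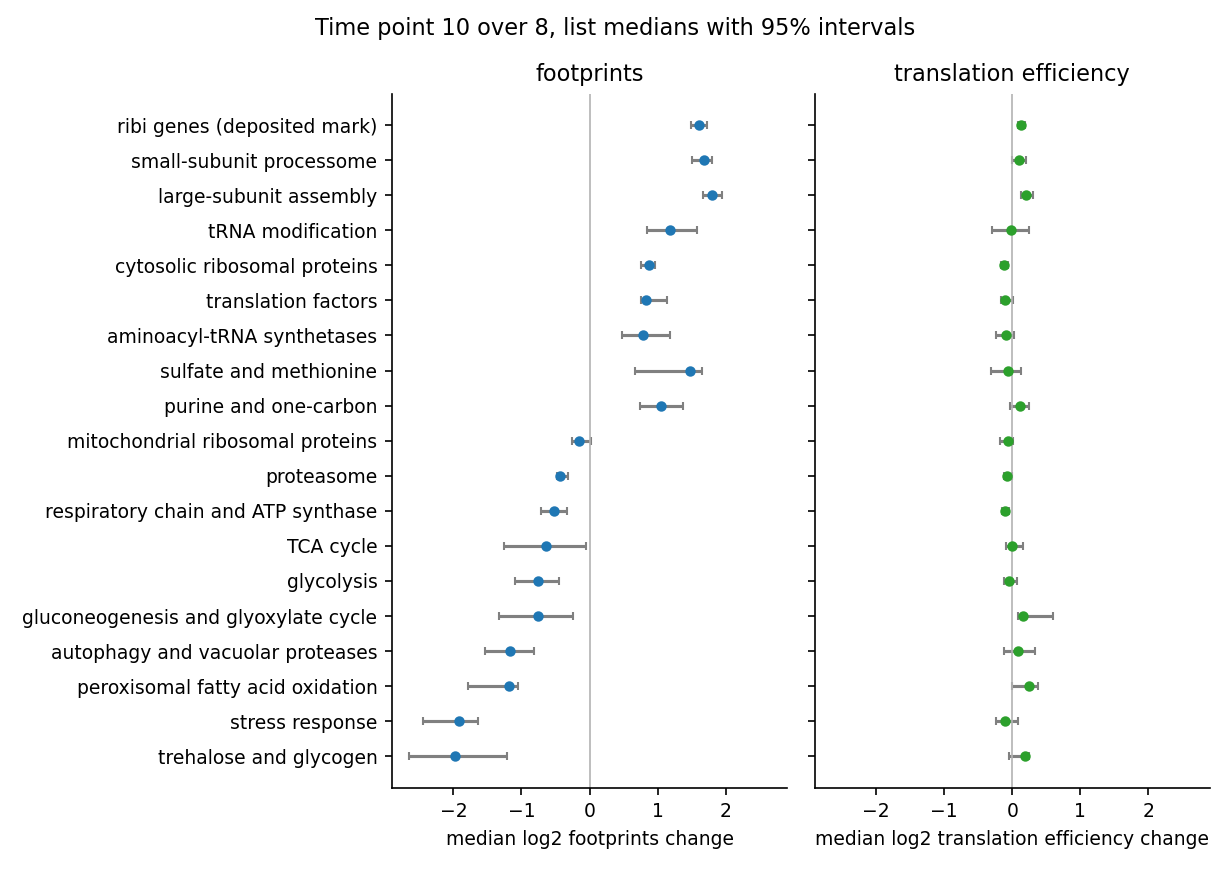
Median footprint change (left) and median TE change (right) of 19 lists, log2, time point 10 over 8, relative to the median gene, with 95% order-statistic intervals over genes. Footprint medians reach from -1.97 to 1.80, while TE medians stay between -0.12 and 0.25.

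Median TE changes of the lists in the plot of footprint and TE medians were smaller than the shift of 0.32 that had been subtracted. Of the lists not plotted there, the 9 hexose transporters had a median TE change of 0.41, the 5 genes GCN4, GCN2, GCN1, GCN20 and GCN5 one of -0.34, and the 7 genes that the paper names one of 0.50. The ribi genes marked by the authors had a median TE change of 0.13 (0.084 to 0.19), with 6 of 165 rising and 2 falling (3.64% and 1.21%), near the shares of all genes, 3.25% and 1.67%. This holds for the step from time point 8 to 10 only. Relative to time point 8, the median TE of these genes was -0.79 at time point 4 and -0.35 at time point 7. It was 0.013 at time point 9 and 0.76 at time point 11. Cytosolic RPs had a median TE change of -0.12 (-0.17 to -0.057), which is 0.21 when the shift is not subtracted, so its direction depends on the scaling. The same holds for every list with a negative median smaller in size than 0.32. Among these are respiratory chain genes (-0.11), proteasome genes (-0.075), arginine and lysine genes (-0.11) and stress response genes (-0.11). Individual ribi genes departed from their list. NSR1 had a TE of 0.354, 0.721 and 1.14 at time points 8, 9 and 10, a change of 1.37 (95% counting interval 1.30 to 1.43), and RIO1 a TE of 0.272, 0.541 and 0.757, a change of 1.15 (95% counting interval 0.95 to 1.36). NOP2, by contrast, had a TE of 0.705, 0.759 and 0.874, a change of -0.014 (95% counting interval -0.10 to 0.071).

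By the same rule of at least 32 footprints in each sample and a TE at time point 9 between the other 2, the largest rises of TE were those of AQR1, SIA1, IMD4, MCH5, KCH1 and NCA3. AQR1 (YNL065W, chromosome XIV, 503724 to 505484), a plasma membrane transporter that excretes amino acids, had a TE of 0.0396, 0.128 and 0.520 at time points 8, 9 and 10, a change of 3.39 (95% counting interval 3.14 to 3.64), from 130, 1238 and 14078 footprints. Its mRNA rose as well, with 105, 238 and 367 RPKM, so that its footprints changed by 5.23. IMD4 (YML056C, chromosome XIII, 162194 to 164176), an IMP dehydrogenase of GMP synthesis, had a TE of 0.0692, 0.158 and 0.535, a change of 2.63 (95% counting interval 2.30 to 2.95), and belongs to a family of near-identical genes. MCH5, the riboflavin transporter, had a TE of 0.102, 0.283 and 0.752, a change of 2.55 (95% counting interval 2.40 to 2.70). SIA1 went against its mRNA, which fell by 1.06 on the log2 scale while TE rose by 2.67, from 40, 105 and 356 footprints. CIT2, the peroxisomal citrate synthase, also had a lower mRNA level at time point 10, 189 RPKM against 299 RPKM at time point 8, and a TE of 0.555, 0.854 and 2.02 at time points 8, 9 and 10, a change of 1.54 (95% counting interval 1.48 to 1.60). GCN4, the activator of amino acid synthesis whose translation is held down by upstream ORFs, had 1260.0, 926 and 895 RPKM of mRNA and a TE of 0.0671, 0.0776 and 0.123, with a TE change of 0.55 (95% counting interval 0.45 to 0.64), short of 2-fold. CCW12, a cell wall protein gene, had a TE of 0.728, 0.890 and 1.35, a change of 0.57.

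The largest falls of TE, again among genes with at least 32 footprints and a TE at time point 9 between the ends, were those of SWC7, YLR177W, TPO2, AI2, FUN19 and CIN4. SWC7, of the chromatin remodeller SWR1, had a TE of 1.52, 0.261 and 0.209 at time points 8, 9 and 10, and 0.764 at time point 7, from 150, 50 and 90 footprints at time points 8 to 10. TPO2 had a TE of 0.556, 0.123 and 0.121 and 0.125 at time point 7, so the value at time point 8, from 89 footprints, stood apart from its neighbours. FUN19 had a TE of 1.06, 0.942 and 0.315, a change of -2.08 (95% counting interval -2.25 to -1.90), and 0.156 at time point 11. YLR177W had a TE of 0.484, 0.474 and 0.104, and its mRNA changed by -1.37. AI2 is an ORF in a mitochondrial intron with few footprints, 81 at time point 8.

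**Figure D4:**
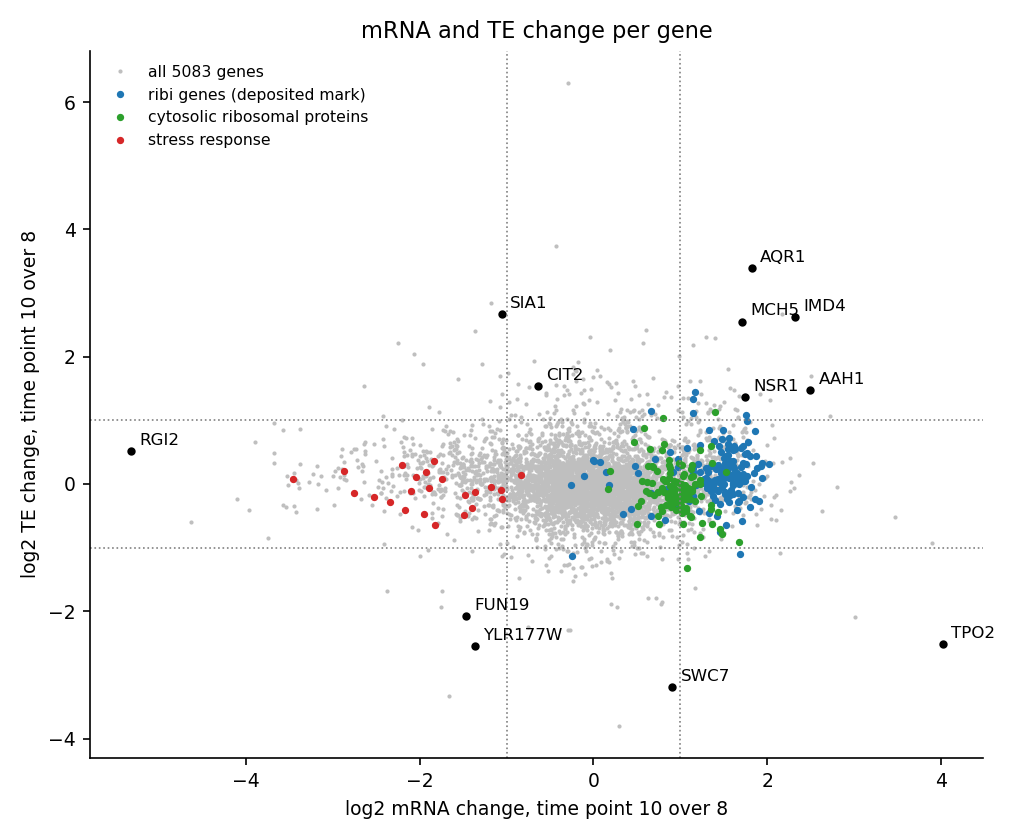
TE change against mRNA change of the 5083 genes (log2, time point 10 over 8, each relative to the median gene), with 3 lists in colour, 12 named genes in black and 2-fold changes as dotted lines. AQR1, at 1.82 in mRNA and 3.39 in TE, rose in both, whereas TPO2, at 4.02 and -2.52, rose in mRNA and fell in TE. The TE of TPO2 at time point 8 stood apart from its neighbours.

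Time point 9 served as a check between the 2 ends. It shares time point 8 with the main comparison, so its values are set beside those of time point 10 and are not independent of them. The median mRNA change of the marked ribi genes was 0.61 at time point 9, 1.49 at time point 10 and 1.61 at time point 11, all against time point 8. For cytosolic RPs it was 0.40, 0.98 and 1.64, for the stress response list -0.59, -1.90 and -4.11, and for peroxisomal genes -0.40, -1.39 and -3.86. Ribi genes were close to their highest mRNA level of the cycle at time point 10. Of 165, 69 had their highest mRNA RPKM of all 16 samples at time point 10 and 84 at time point 11. RPs came later, with 2 of 111 highest at time point 10, 33 at time point 11 and 54 at time point 12. Of the 23 stress response genes, 18 had their lowest mRNA level at time point 11 and none at time point 10.

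**Figure D5:**
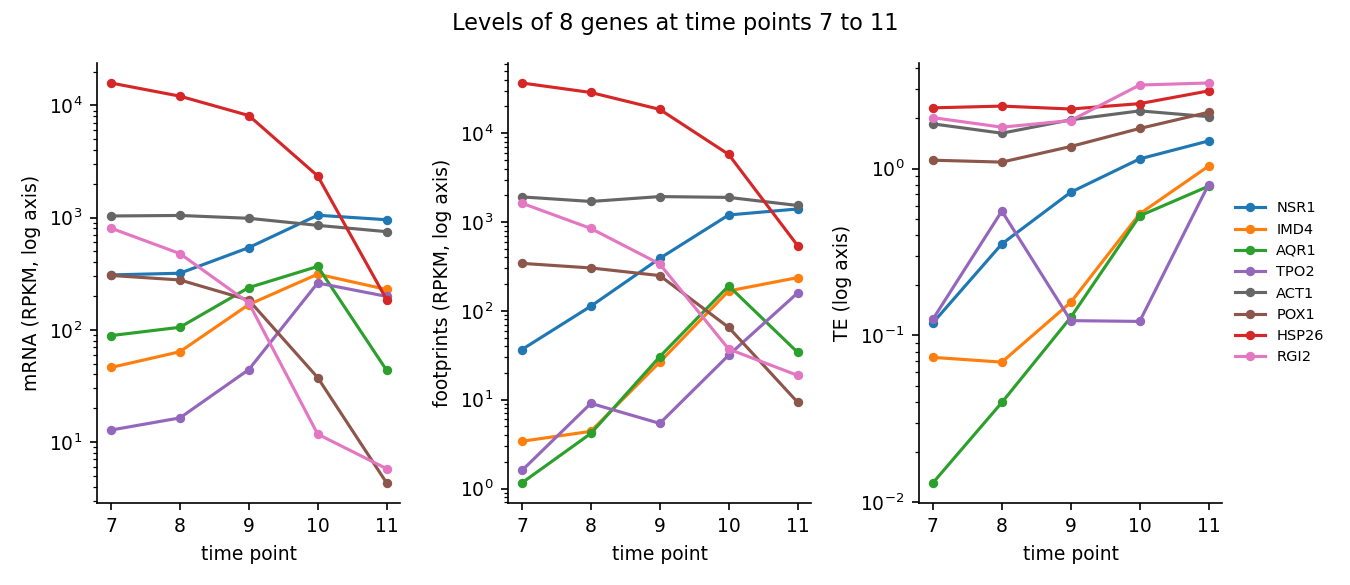
Levels of 8 genes at time points 7 to 11, as mRNA RPKM (left), footprint RPKM (middle) and TE (right), all on log axes, 1 sample per point. NSR1, IMD4, AQR1 and TPO2 have more mRNA at time point 10 than at time point 8, and RGI2, HSP26 and POX1 have less, while ACT1 stays between 749 and 1045 RPKM.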

How the data were processed

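Ribosome profiling and RNA-seq libraries of 16 time points of 1 cycle were read, 1 of each per time point. According to the processing notes and the paper's methods, the authors removed rRNA and tRNA reads with Bowtie 1.1.2, aligned the rest with TopHat2 2.1.1 to sacCer3, and counted reads per CDS with plastid (footprints at P-sites, mRNA reads at their 5′ base), with non-unique positions and the CDS ends masked. RNA-seq libraries were stranded. Molecular identifiers were removed from footprint reads, and whether duplicates were collapsed is not given in the sources used here, so intervals cover counting error of reads only. The authors deposited raw counts per gene and, beside them, RPKM, in which they scaled each count for CDS length and total reads. Dissolved oxygen, deposited as a percent, and elapsed time in hours are the authors' readings.

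TE was taken as the ratio of footprint to mRNA RPKM, and log2 changes were centred on the median gene, after the paper's methods. Genes needed 128 mRNA counts and 1 footprint count in all 3 samples. Of 6349 features not marked dubious, 756 had no RPKM, 472 others had under 128 mRNA counts in a sample, and 38 lacked footprints in a sample. A change called passed 2-fold. Gene intervals are 95% Poisson intervals of the log ratio, list intervals are 95% binomial order-statistic intervals of the median. No p-values were computed. Lists hold 35 pathways and complexes, chosen with earlier results of these data known, as were the genes described, together with the ribi mark of the authors' files, which the study set on annotation. Named genes are those the study names, the phase markers, the 10 largest mRNA changes and the 6 largest footprint and TE changes in each direction among genes with at least 32 footprints in each sample and a level at time point 9 between the others, and in each list the 2 most abundant and the 2 most changed mRNAs. Some genes that this rule names are not reported here. Columns with no sample numbered 0. Coordinates are those of the RefSeq table of assembly R64, the sequence of sacCer3, in which all 5083 genes were found. Python 3.11.15, pandas 2.3.3, numpy 2.4.6, scipy 1.17.1 and matplotlib 3.10.9 were used, and scaling factors came from edgeR 4.0.16 in R 4.3.3. The computation was tested on simulated data. Alternatives were other minimums, no centring, TMM or RLE scaling of CPM from the counts, other time points and dubious ORFs kept.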

Additional observations from a re-analysis of the deposited data

How the results depend on the processing

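The counts of genes past 2-fold and 108 list medians were computed again under 10 alternatives. A list median is named below as changing sign only where its interval in the main comparison excluded 0. With a minimum of 32 footprints, minimums on the mean, no minimum, TMM- or RLE-scaled CPM, or dubious ORFs kept, all counts stayed within 1.5 times their value and all list medians within their intervals. Without subtraction of the median, footprints of 402 genes fell, TE rose for 372 and fell for 28, and the median TE change was 0.21 for cytosolic RPs, 0.22 for arginine and lysine synthesis, 0.21 for the respiratory chain and 0.25 for the proteasome, against negative values with it. With time point 7 as the earlier sample, the median mRNA change of arginine and lysine synthesis was -0.14. With time point 11 as the later sample, footprints of 1108 genes fell, TE rose for 274 and fell for 263, and median TE changes of cytosolic RPs (0.18), arginine and lysine synthesis (0.19) and gluconeogenesis and the glyoxylate cycle (-0.46) changed sign. With time point 9 as the later sample, mRNAs of 29 genes rose and of 22 fell, footprints of 168 rose and of 65 fell, and TE fell for 48. In that setting median footprint changes of arginine and lysine synthesis (-0.063) and of histidine and aromatic synthesis (-0.13), and median TE changes of the small-subunit processome (-0.055) and the proteasome (0.022), changed sign. Besides the medians named, 35 of the 108 left their intervals without subtraction of the median. With time point 7 as the earlier sample 21 did so. With time point 11 or 9 as the later sample 57 and 48 did so. Other time points are other samples, and the cause of these differences was not tested.

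No paired analysis was possible because each time point has 1 sample. At the lowest depth, time point 8, 44 of the 5083 genes had under 32 footprints, where counting error alone is wide.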

Other observations

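Of the genes that changed over 2-fold in mRNA, 311 of 653 that rose and 473 of 577 that fell belong to none of the lists. So do 4143 of all 5083 genes. Of these 4143 genes 7.51% rose and 11.4% fell in mRNA, against 12.8% and 11.4% of all genes. Their median mRNA change was -0.056. In TE 146 of the 165 rises and 74 of the 85 falls were among them, which is 3.52% and 1.79% of them, against 3.25% and 1.67% of all genes.

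Another 38 genes met the minimum of mRNA counts in all 3 samples but no footprint in at least 1, and so are not among the 5083 genes. PRM7 had 2056, 9721 and 24110 mRNA counts at time points 8, 9 and 10 with 0, 0 and 13 footprints, and its neighbour BSC1 had 1296, 5364 and 12018 mRNA counts with 0, 6 and 61 footprints. HXT1, a low-affinity hexose transporter, had 210, 249 and 166 mRNA counts with 1, 0 and 111 footprints. CIN5, a stress-related transcription factor, had 775, 378 and 157 mRNA counts with 45, 64 and 0 footprints. These 4 were chosen after their values were seen. Of 7 histone genes measured, 6 had a lower mRNA level relative to the median gene at time point 10 than at time point 8, none of them past 2-fold. The exception was HTB2, which rose with 98.1, 173 and 214 RPKM of mRNA at time points 8, 9 and 10, while HTA1 had 817, 697 and 626 RPKM and HHT1 144, 81.5 and 79.1 RPKM.

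Steps between neighbouring samples differed in how many mRNAs passed 2-fold. The steps from time point 1 to 2, of 0.32 h, and from 3 to 4, of 0.68 h, held 801 of 5076 and 487 of 5066 genes. The step from time point 9 to 10, of 0.08 h, held 377 of 5109 genes, that from 10 to 11, of 0.17 h, 402 of 4994, and that from 11 to 12, of 0.16 h, 837 of 5001. Steps between time points 4 and 9 and from 2 to 3 held from 5 to 81 genes. The later steps from 12 to 13, 13 to 14, 14 to 15 and 15 to 16 held 16, 7, 2 and 10 genes.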
